A study of Rattus norvegicus with 9 samples.

Results

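The cornified envelope precursors described here were 10 genes of the rat tongue: the transglutaminase gene Tgm1, the precursor genes Ivl and Loricrin, the small proline-rich genes Sprr1a, Sprr1b, Sprr2d and Sprr3, the late cornified envelope genes Lce1f and Lce3b, and Kprp. They were taken by gene symbol, as every probe set whose single symbol in the platform annotation was 1 of these names, which gave 11 probe sets of 31042 (10 genes of 14217 with a single symbol). The list itself was selected on the readout, since it was drawn up with the group differences in these arrays known, so the levels and differences of the 10 genes are given as a description with no test. Lce3b had 2 probe sets, and every other gene had 1.

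Tongue tissue of male Sprague Dawley rats was profiled on 9 arrays, 3 in each of 3 groups. The normal group was given distilled water only. The 4NQO group was given 4-nitroquinoline oxide (4NQO) at 0.002% in the drinking water, a carcinogen used to induce dysplasia and carcinoma of the tongue, and by the methods was injected weekly with saline under the tongue mucosa. The third group, 4NQO+IL-1Ra, had the same carcinogen and weekly submucosal injections of recombinant rat interleukin-1 receptor antagonist (IL-1Ra), which blocks the IL-1 receptor, and is called the IL-1Ra group below. In the labels the carcinogen runs up to week 22 and death falls between week 14 and week 22, once lesions were seen, whereas the methods place the injections after week 14 and up to week 22, so that the time of death and the length of exposure are not settled. No lesion stage was given for the single tongues. The normal rats had no injection, so the carcinogen and the saline injection cannot be told apart in the comparison with 4NQO. Each array came from a separate tongue by the methods. The sample titles carry a number within each group but do not say that it stands for an animal, so p-values measure the spread between these samples.

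The cornified envelope is the insoluble protein shell that replaces the plasma membrane of a keratinocyte at the end of its differentiation. Transglutaminases cross-link precursor proteins to each other beneath the membrane, starting with involucrin and the plakins and continuing with loricrin and the small proline-rich proteins, after which the late cornified envelope proteins are added. Most of the precursor genes lie side by side in 1 chromosomal segment, the epidermal differentiation complex. The upper surface of the rodent tongue is covered with papillae of keratinised epithelium, where this programme runs throughout life.

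In the RefSeq gene table (assembly GRCr8), 9 of the 10 genes lay on chromosome 2 and Tgm1 on chromosome 15. The RefSeq promoter table held 9 of the 10 genes, without Sprr3. In the 250 bases before each annotated start, 5 motifs were searched on both strands: the AP-1 site TGANTCA, the TATA box TATAAA, the Grainyhead site AACNGGTT, the GATA site AGATAA and the KLF site CCCCNCCC. The windows of Ivl and Tgm1 fell inside the span that the gene table gives these genes. The 4 windows with a TATA box are printed below (GRCr8, RefSeq, written 5′ to 3′ on the gene's own strand and ending at the base before the start), because 3 of them also hold an AP-1 site, which binds the Fos and Jun factors. Capitals mark the AP-1 sites and TATA boxes.
Loricrin (chr2:180256573-180256822, minus strand): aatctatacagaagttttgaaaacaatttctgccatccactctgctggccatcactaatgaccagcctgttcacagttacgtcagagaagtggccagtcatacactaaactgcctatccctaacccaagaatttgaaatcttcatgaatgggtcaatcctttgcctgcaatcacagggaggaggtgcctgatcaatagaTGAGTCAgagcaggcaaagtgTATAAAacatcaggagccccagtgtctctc
Sprr1a (chr2:180752626-180752875, minus strand): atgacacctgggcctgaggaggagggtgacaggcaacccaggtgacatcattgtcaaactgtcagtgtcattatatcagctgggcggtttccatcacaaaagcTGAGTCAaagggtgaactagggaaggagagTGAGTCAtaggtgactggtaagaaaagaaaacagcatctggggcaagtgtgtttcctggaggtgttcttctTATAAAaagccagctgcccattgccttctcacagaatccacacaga
Sprr1b (chr2:180706356-180706605, minus strand): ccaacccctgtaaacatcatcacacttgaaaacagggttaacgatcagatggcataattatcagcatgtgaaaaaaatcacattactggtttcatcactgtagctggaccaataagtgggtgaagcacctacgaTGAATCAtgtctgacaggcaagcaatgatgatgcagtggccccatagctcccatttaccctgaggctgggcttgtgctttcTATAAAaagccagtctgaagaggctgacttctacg
Kprp (chr2:181129829-181130078, minus strand): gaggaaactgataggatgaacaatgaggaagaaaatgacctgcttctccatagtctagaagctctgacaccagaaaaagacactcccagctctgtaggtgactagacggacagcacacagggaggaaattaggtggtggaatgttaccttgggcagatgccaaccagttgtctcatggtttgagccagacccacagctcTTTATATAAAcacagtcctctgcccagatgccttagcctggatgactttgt

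An AP-1 site was found before 3 of the 9 starts (Loricrin, Sprr1a and Sprr1b), and 6.34% of 33469 rat promoters of the same length held one. Sprr1a had 2 AP-1 sites, from 147 to 141 and from 117 to 111 bases before the start. Sprr1b had 1, from 116 to 110 bases before its start, and Loricrin had 1 close to its start, from 51 to 45. The search let the middle base be any letter, in these windows and in all promoters. It was A in Sprr1b and G in Loricrin and Sprr1a. A TATA box was found before 4 of the 9 starts, and 12.9% of all promoters held one. It began 30 bases before the start in Loricrin, 35 in Sprr1b and 46 in Sprr1a. In Kprp the capitals cover 2 overlapping matches on opposite strands, from 51 to 42 bases before the start. The Grainyhead site was found before 1 of the 9 starts (Kprp) and in 1.76% of all promoters, the GATA site before 2 (Sprr2d and Lce1f) and in 10.3%, and the KLF site before 1 (Tgm1) and in 28.3%. The windows of Ivl and Lce3b held none of the 5. A match describes letters in the window, and binding was not measured.

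**Figure D1:**
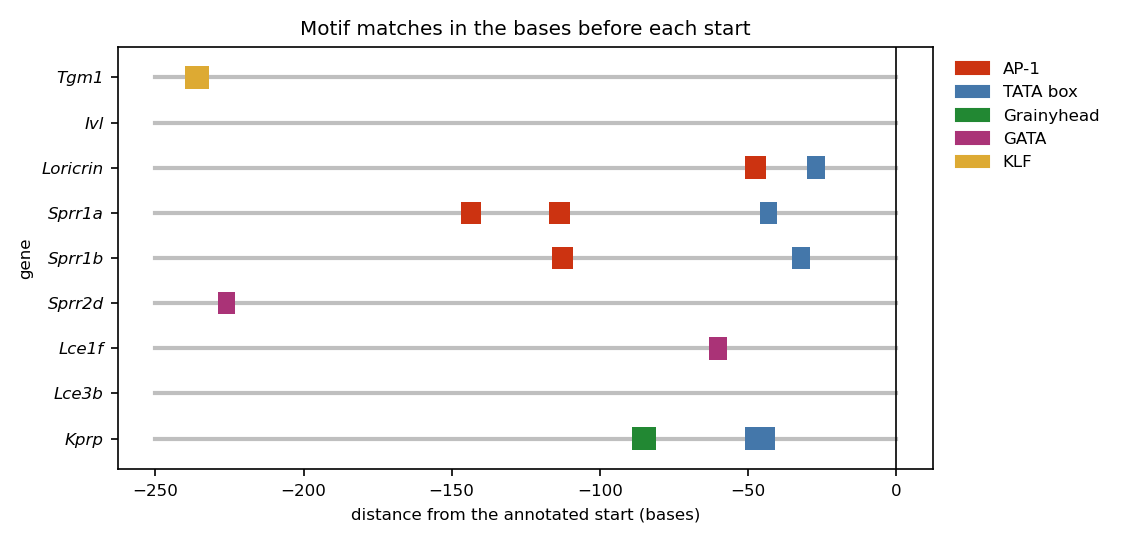
Matches of 5 motifs (coloured blocks) in the 250 bases before the annotated start of 9 genes, drawn by their distance from the start in bases. The AP-1 and TATA matches of Loricrin, Sprr1a and Sprr1b follow each other in the same order.

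Values below are log2 of the deposited intensity, given for arrays 1, 2 and 3 of a group in that order, and the level of 1 probe set cannot be set against that of another. As a check on the tissue, the 10 skeletal muscle markers had a summed intensity of 68059 to 89361 on the 9 arrays, and the 8 measured of 10 pan-epithelial markers (desmosomal and adhesion genes) one of 9767 to 23313. Lingual gland markers were dim, with 5 measured genes summing to 65 to 89. The 4NQO array 2 stood apart from the other arrays for the envelope genes. All 11 probe sets had their lowest value of the 9 arrays on it. Among the 3 4NQO arrays alone it was the lowest for the same 11, and for 31.6% of all probe sets. Results are therefore also given without it. Whole pieces of tongue were measured, so fewer cornifying cells and less RNA per cell cannot be told apart.

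Across the 10 genes, the median difference of 4NQO from normal was -1.97 log2, and that of IL-1Ra from 4NQO was 2.39. Between IL-1Ra and normal the median difference was 0.17. Over all 31042 probe sets the medians were 0.01, -0.023 and -0.005. The 3 comparisons share arrays, so they are not independent of each other. Without 4NQO array 2 the medians were -1.07 for 4NQO against normal and 1.76 for IL-1Ra against 4NQO.

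**Figure D2:**
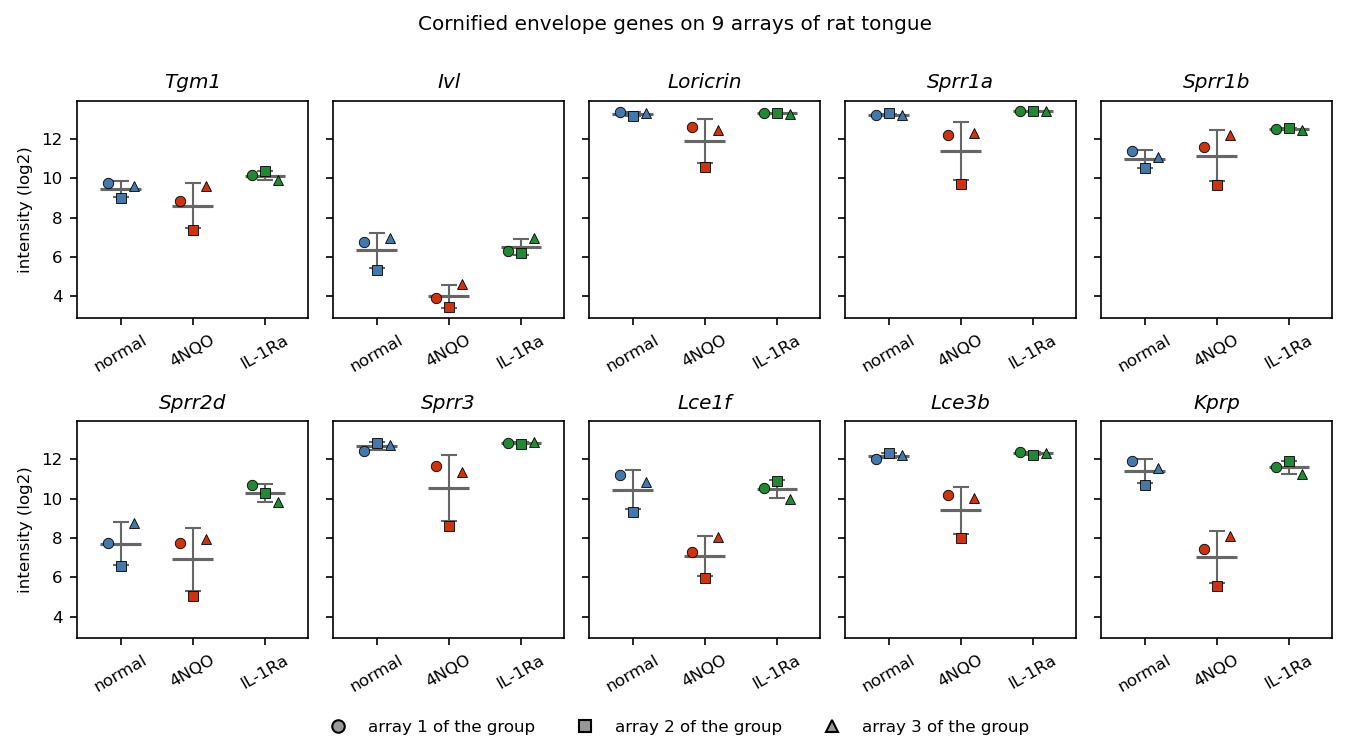
Intensity (log2) of the 10 genes on each of 9 arrays, by group, with the mean (line) and SD (bar) of 3 arrays, and Lce3b by its probe set with the higher mean. In all 10 panels the 3 IL-1Ra arrays lie above the 3 4NQO arrays, and the square of 4NQO, array 2, is the lowest point.

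Tgm1 encodes transglutaminase 1, the membrane-bound enzyme that cross-links the precursors. It was at 9.78, 8.99 and 9.62 on the normal arrays, 8.84, 7.35 and 9.60 on the 4NQO arrays and 10.17, 10.36 and 9.89 on the IL-1Ra arrays. The normal and 4NQO arrays overlapped, with 4NQO array 3 within the normal range, and the IL-1Ra arrays lay above both. The group means were 9.47 ± 0.42, 8.60 ± 1.14 and 10.14 ± 0.24 (SD, n = 3). The difference of 4NQO from normal was -0.87 log2, about the size of the pooled SD of 0.86, and it was -0.25 without 4NQO array 2. IL-1Ra was 2.92-fold above 4NQO and 1.60-fold above normal, and its difference of 1.55 log2 from 4NQO was 0.92 without that array.

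Ivl encodes involucrin, an early scaffold of the envelope. Its values were 6.76, 5.32 and 6.96 on the normal arrays, 3.90, 3.48 and 4.61 on the 4NQO arrays and 6.32, 6.2 and 6.98 on the IL-1Ra arrays. Every 4NQO array was below every normal and every IL-1Ra array, and the latter 2 groups overlapped. The mean was 5.10-fold lower in 4NQO than in normal and 5.66-fold higher in IL-1Ra than in 4NQO. Ivl depended little on 4NQO array 2, with a difference of -2.35 log2 from normal with it and -2.09 without it. The 3.48 of 4NQO array 2 was the only value of the 11 probe sets below the lower quartile of its array.

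Loricrin encodes the main glycine-rich protein of the envelope in keratinised epithelium. It was at 13.35, 13.14 and 13.33 in normal, 12.58, 10.59 and 12.47 in 4NQO and 13.30, 13.33 and 13.24 in IL-1Ra. Normal and IL-1Ra arrays overlapped, and their means differed by 0.02 log2. The 4NQO arrays were below both, at -0.70 and -0.80 from the normal mean on arrays 1 and 3 and -2.68 on array 2. The mean of 4NQO was thus 2.63-fold below normal, and the difference of -1.39 log2 became -0.75 without array 2. On the normal and IL-1Ra arrays Loricrin and Sprr1a were at percentile 99.9 or above of their array, and whether the brightness was compressed there, which would make folds too small, was not tested.

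The 4 small proline-rich genes, whose proteins bridge other precursors, did not share 1 pattern. Sprr1a was at 13.19, 13.29 and 13.21 in normal, 12.20, 9.70 and 12.30 in 4NQO and 13.40, 13.42 and 13.42 in IL-1Ra. Sprr3, abundant in the epithelium of mouth and oesophagus, was at 12.42, 12.84 and 12.72 in normal, 11.64, 8.62 and 11.37 in 4NQO and 12.82, 12.79 and 12.88 in IL-1Ra. Both genes were lower on all 4NQO arrays than on any other array, by 3.56-fold for Sprr1a and 4.34-fold for Sprr3 against normal. Without 4NQO array 2 the difference from normal was -0.98 log2 instead of -1.83 for Sprr1a and -1.16 instead of -2.12 for Sprr3. In IL-1Ra they were within 0.18 and 0.17 log2 of the normal mean, although every IL-1Ra array of Sprr1a was above every normal array, by at least 0.11.

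Sprr1b, of the same subfamily as Sprr1a, was at 11.37, 10.50 and 11.10 in normal, 11.58, 9.68 and 12.18 in 4NQO and 12.50, 12.56 and 12.47 in IL-1Ra. The normal and 4NQO arrays overlapped, and the mean of 4NQO was 0.16 log2 above normal, or 0.89 above without 4NQO array 2. The 3 IL-1Ra arrays lay between 12.47 and 12.56, above all other arrays, 2.88-fold above normal in the mean. Sprr2d was at 7.74, 6.59 and 8.77 in normal, 7.72, 5.06 and 7.96 in 4NQO and 10.71, 10.30 and 9.82 in IL-1Ra. Its 4NQO arrays 1 and 3 lay within the normal range, and the difference of -0.79 log2 turned to 0.14 without array 2, while the IL-1Ra mean was 10.3-fold above 4NQO and 5.97-fold above normal. Without that array IL-1Ra differed from 4NQO by 2.44 log2 instead of 3.37 for Sprr2d, and by 0.63 instead of 1.36 for Sprr1b. Of the 10 genes, Sprr1b and Sprr2d had the largest differences between IL-1Ra and normal, at 1.52 and 2.58 log2, and Tgm1 followed at 0.68. The gene table lists 6 Sprr2 genes in the segment, and matches of the probes to the other Sprr2 transcripts were not examined, so the Sprr2d value may hold signal of its relatives.

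Lce1f and Lce3b encode late cornified envelope proteins, small proteins added last to the envelope. Lce1f was at 11.19, 9.34 and 10.83 in normal, 7.26, 5.98 and 8.02 in 4NQO and 10.52, 10.89 and 9.99 in IL-1Ra. Lce3b, by its probe set with the higher mean, was at 12.03, 12.30 and 12.22 in normal, 10.18, 8.0 and 10.01 in 4NQO and 12.34, 12.21 and 12.33 in IL-1Ra. For both genes the 4NQO arrays were below all others and the normal and IL-1Ra arrays overlapped. Lce1f was 10.3-fold lower in 4NQO than in normal, and its means in IL-1Ra and normal differed by 0.02 log2. Without 4NQO array 2 the differences of 4NQO from normal were -2.81 log2 instead of -3.37 for Lce1f and -2.09 instead of -2.79 for Lce3b. The other probe set of Lce3b was at 11.07, 11.77 and 11.56 in normal, 9.37, 7.39 and 8.72 in 4NQO and 11.88, 11.64 and 11.99 in IL-1Ra. It gave the same order of groups, with differences of -2.98 and 3.34 log2 where the first probe set had -2.79 and 2.90. The first is of the type marked x_at, whose probes can match related transcripts.

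Kprp encodes a proline-rich protein of keratinocytes. It was at 11.90, 10.70 and 11.57 in normal, 7.41, 5.54 and 8.08 in 4NQO and 11.61, 11.92 and 11.24 in IL-1Ra. The 4NQO arrays lay at least 2.63 log2 below the lowest normal array and at least 3.17 below the lowest IL-1Ra array. Of the 10 genes it had the largest differences, 20.8-fold lower in 4NQO than in normal and 24.0-fold higher in IL-1Ra than in 4NQO. Without 4NQO array 2 they were -3.65 and 3.85 log2, from -4.38 and 4.58. The means of IL-1Ra and normal differed by 0.20 log2, within the pooled SD of 0.50.

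In counts, all 3 4NQO arrays were below all 3 normal arrays for 7 of the 10 genes, all but Tgm1, Sprr1b and Sprr2d, and for 17.6% of all probe sets. The IL-1Ra arrays were all above the 4NQO arrays for 10 of 10 genes and for 8.92% of all probe sets. They were all above the normal arrays for 4 genes, Tgm1, Sprr1a, Sprr1b and Sprr2d, and for 19.4% of all probe sets. These contrasts were known when the genes were chosen, so nothing is read from the shares.

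The spread within groups also had a pattern. The SD of a gene over 3 arrays was largest in 4NQO for 9 of 10 genes and in normal for the other, Ivl. The median SD over the 10 genes was 0.43 log2 in normal, 1.26 in 4NQO and 0.16 in IL-1Ra, against 0.11, 0.19 and 0.15 over all probe sets. On 4NQO array 2 the genes had a median of -3.20 log2 from the normal mean, against -1.02 and -1.11 on 4NQO arrays 1 and 3. The gap from array 2 to the lower of the other 2 arrays was at least 1 log2 for 9 of 10 genes, with Ivl at 0.42, and for 0.657% of all probe sets. It was widest for Sprr3 (2.75) and Sprr2d (2.66).

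A smaller pattern appeared in the normal group. Array 2 had the lowest value for 7 of 10 genes, with a median of -0.48 from the normal mean against 0.20 and 0.13 on arrays 1 and 3. Sprr2d and Lce1f were both at -1.11 from the normal mean there and Ivl at -1.03, whereas Sprr1a, Sprr3 and Lce3b were 0.06, 0.18 and 0.12 above it. On the IL-1Ra arrays the medians were 0.17, 0.31 and 0.20. Over the 45 pairs of genes, Pearson's r across the 9 arrays ran from 0.49 to 1.00 with a median of 0.87. After the group means were removed it ran from 0.31 to 1.00 with a median of 0.85. These correlations rest on 9 arrays that all genes share and are given as a description. The 4NQO array 2, with a median of -3.20 against -1.02 and -1.11 on 4NQO arrays 1 and 3, weighs heavily in both. Correlations without it were not computed, so 0.85 is not read as a link between genes within groups.

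**Figure D3:**
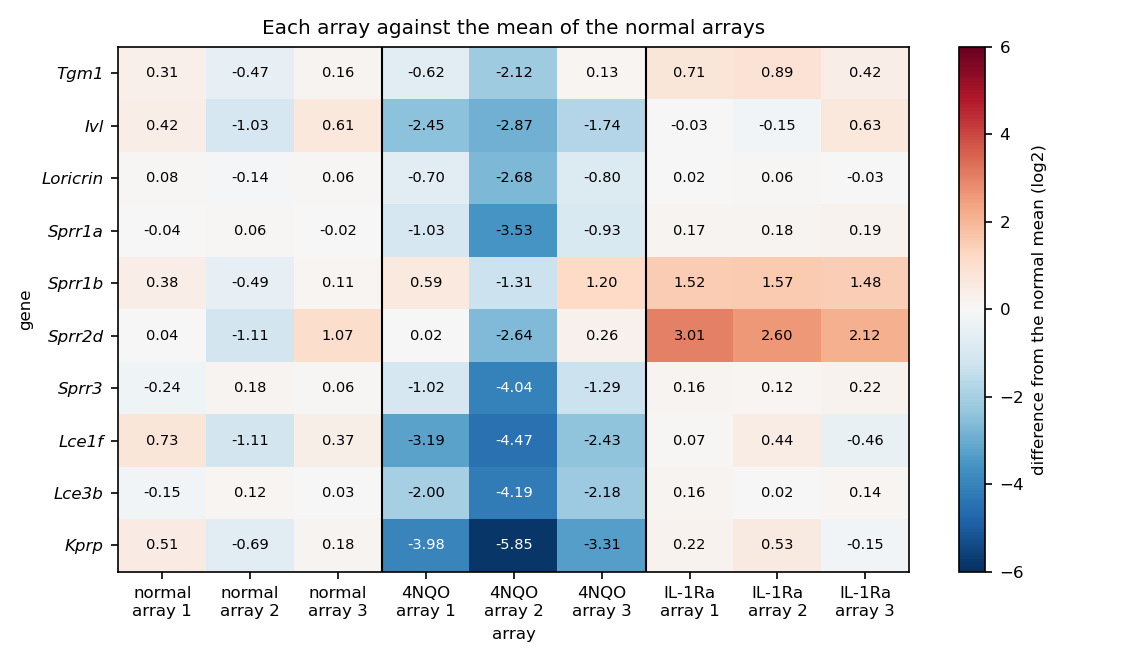
Difference of each array from the mean of the normal arrays (log2) for the 10 genes, in colour and print, with genes in rows and arrays in columns. The column of 4NQO array 2 runs from -5.85 (Kprp) to -1.31 (Sprr1b), and in the IL-1Ra columns Sprr1b, Sprr2d and Tgm1 are above 0 on all 3 arrays by 0.42 or more.

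Several values moved beside these differences, and their part in them was not tested. Summed pan-epithelial markers were at 20037, 13194 and 18396 on the normal arrays, 13168, 9767 and 21795 on the 4NQO arrays and 21406, 23313 and 19804 on the IL-1Ra arrays. They were thus lowest on 4NQO array 2 and low on normal array 2, the arrays with low envelope genes. On 4NQO array 3 they were above every normal array, and there 3 of the 10 genes (Sprr1b, Sprr2d and Tgm1) were above the normal mean and 7 below it. Limma, at an adjusted p under 0.05, called 0 of the 8 in any comparison, where for 4NQO against normal it called 9.41% of all probe sets higher and 5.44% lower, and for IL-1Ra against 4NQO 1.59% higher and 0.731% lower. At an unadjusted p under 0.05 it had 0 for 4NQO against normal, 2 higher for IL-1Ra against 4NQO and 1 higher for IL-1Ra against normal, and the methods' t-test had 0, 0 and 1. Of the 8 basal keratinocyte markers (basal keratins and hemidesmosome genes), 4 rose in 4NQO and 0 fell, with sums of 15531 to 27767 against 8756 to 14376 in normal and 16144 to 20353 in IL-1Ra. Of 9 suprabasal keratins measured, 2 fell in 4NQO and 2 were higher in IL-1Ra than in 4NQO, with sums of 31772 to 48587 in normal, 19124 to 44410 in 4NQO and 44528 to 52373 in IL-1Ra.

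Outside the epithelium, 6 of 8 fibroblast markers were lower in 4NQO than in normal, with sums of 4564 to 13361 against 18433 to 21173, the lowest on array 2. In IL-1Ra the sums were 12531 to 16007. Over all probe sets 5.44% were lower in that comparison. Endothelial markers rose in 4NQO for 3 of 5, against 9.41% of all probe sets, and of the 8 leukocyte markers 1 fell, with the lowest sum (747) again on 4NQO array 2. Of the 5 adipocyte markers, 1 was lower in IL-1Ra than in normal, as were 0.541% of all probe sets, and 0 were called in the other comparisons, with 0 in 4NQO against normal and 1 lower in IL-1Ra against 4NQO at an unadjusted p under 0.05. Muscle and lingual gland markers had 0 calls by limma in any comparison. At an unadjusted p under 0.05, limma had 1 muscle marker lower in IL-1Ra than in 4NQO and 1 lower than in normal (0 and 3 by the methods' t-test), and 2 gland markers lower in 4NQO than in normal (1 by the methods' t-test). The 3′ minus 5′ difference of the beta-actin control, which grows as RNA degrades, was 0.80 ± 0.06 log2 in normal, 1.20 ± 0.11 in 4NQO and 1.13 ± 0.15 in IL-1Ra (SD, n = 3), with 1.07 on 4NQO array 2. It was higher than normal in both treated groups, and 4NQO array 2 had the lowest value of its group. For hexokinase the difference was 1.5 ± 0.03, 1.5 ± 0.26 and 1.98 ± 0.20, and for GAPDH 0.27 ± 0.03, 0.35 ± 0.07 and 0.27 ± 0.01, in the same order.

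The genes between Loricrin and Lce3b, the outer 2 chosen genes of the segment, were examined next. In GRCr8 order the segment held 39 protein-coding genes, 9 of them chosen and 30 others. Of these 30, 4 had a single-symbol probe set: Smcp, a sperm mitochondrial gene, Kplce, a gene related to the late envelope genes, and the unnamed LOC102552128 and LOC102549828. None of the other Sprr or Lce genes had one. Limma called 4 of the 4 lower in 4NQO than in normal, where 5.44% of all probe sets were lower and 9.41% higher. In IL-1Ra against 4NQO it called 3 of the 4 higher, where 1.59% of all probe sets were higher and 0.731% lower. The count of 4 was 2 without normal array 1 and 2 without normal array 3, and both counts were 0 by the methods' t-test after Benjamini-Hochberg adjustment.

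LOC102552128 was at 11.30, 9.90 and 11.14 in normal, 6.96, 5.64 and 7.49 in 4NQO and 10.83, 11.03 and 10.18 in IL-1Ra. It was 16.9-fold lower in 4NQO (limma adjusted p = 0.00384) and 15.8-fold higher in IL-1Ra than in 4NQO (limma adjusted p = 0.00376), and the normal and IL-1Ra arrays overlapped. LOC102549828, measured by an x_at probe set, was at 12.54 ± 0.41 in normal, 9.90 ± 0.54 in 4NQO and 12.77 ± 0.12 in IL-1Ra (SD, n = 3; limma adjusted p = 0.00321 and 0.00158). Kplce was at 11.11, 8.61 and 10.66 in normal, 6.81, 5.38 and 7.94 in 4NQO and 10.55, 11.27 and 9.23 in IL-1Ra, 10.7-fold lower and then 12.4-fold higher (limma adjusted p = 0.0213 and 0.0446). These 3 lay in the part of the segment that holds Lce1f, Kprp and Lce3b. Smcp was dim, at 3.16 to 4.4 on the 9 arrays, where the lower quartile of an array was 3.6 to 3.78, and it is left out when dim probe sets are. Its difference of -0.70 log2 in 4NQO passed (limma adjusted p = 0.0433) close to that level, and it had a difference of 0.33 in IL-1Ra against 4NQO (limma adjusted p = 0.411). Against normal, 0 of the 4 were called in IL-1Ra by limma or by the methods' t-test, also at an unadjusted p under 0.05.

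**Figure D4:**
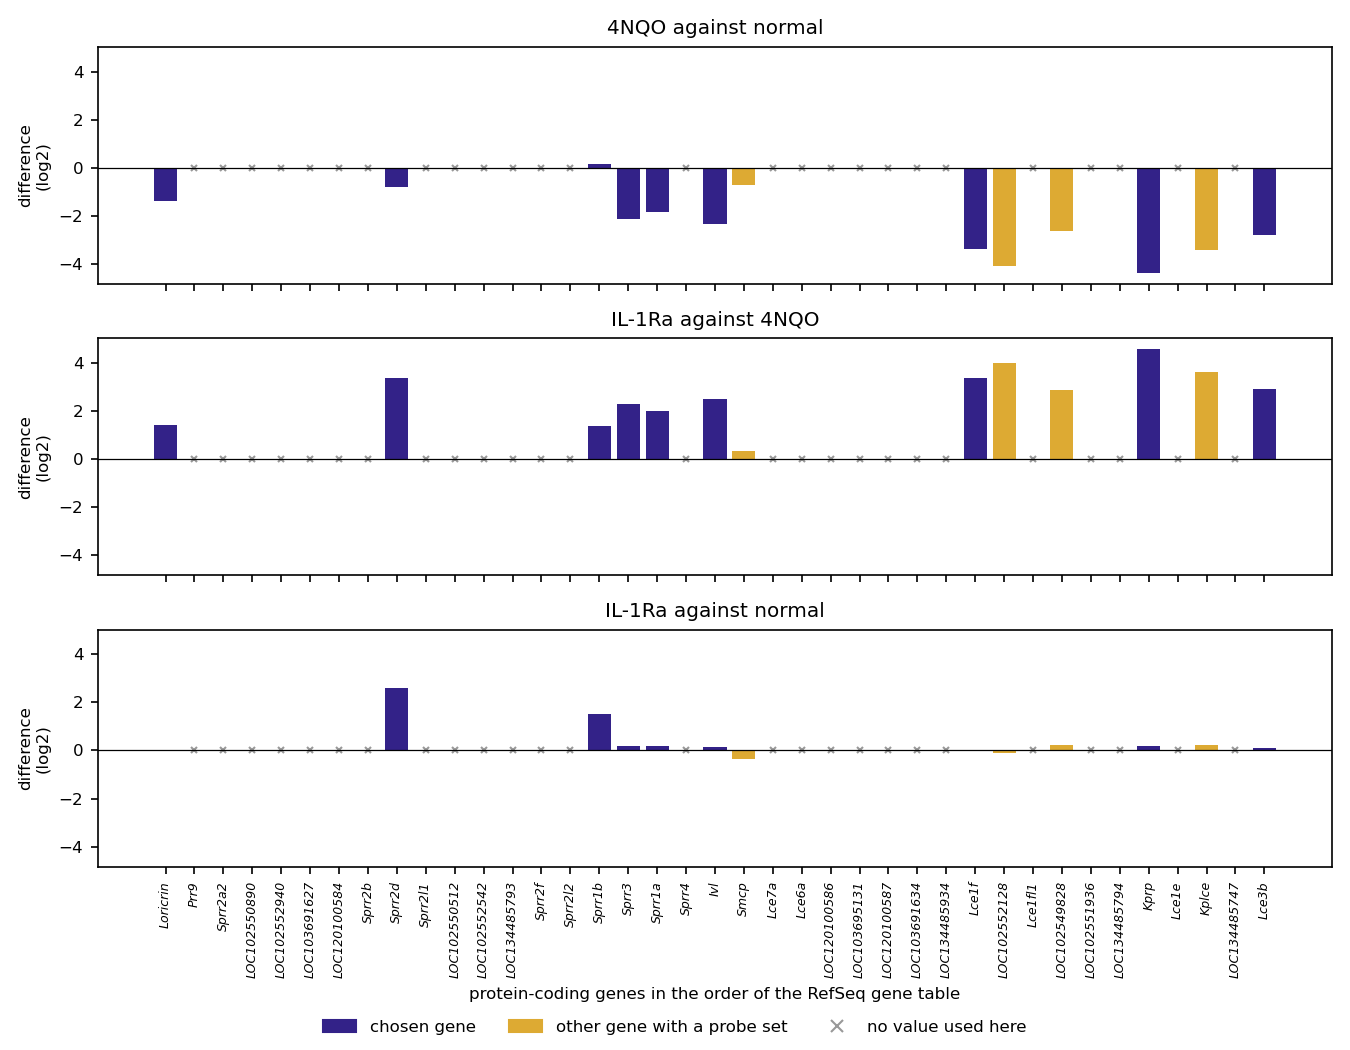
Difference between group means (log2) for each protein-coding gene from Loricrin to Lce3b, in the order of the gene table, with chosen genes in blue, other genes with a probe set in yellow and a cross where no value was used. Kprp, Lce1f, LOC102552128 and Kplce, on the right, have the longest bars in the upper panel, and Sprr2d and Sprr1b in the lower.

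Beyond the chosen genes, 78 genes were measured for 5 lists of cornification with 120 listed symbols. A listed symbol absent from the arrays was looked up by synonym, which brought in Klk1, Klk1c9 and Stfa3, genes not listed themselves. None of these was called in any comparison, and they remain in the counts and medians. In 4NQO against normal, 21 fell, 6 rose and 51 did not pass, with a median of -0.46 log2, where 5.44% of all probe sets were lower and 9.41% higher. The 6 that rose were a smaller share than that background. In IL-1Ra against 4NQO, 23 rose, 0 fell and 55 did not pass, with a median of 0.80, where 1.59% of all probe sets were higher and 0.731% lower. Limma and the methods' t-test each had 2 lower in that comparison at an unadjusted p under 0.05. In IL-1Ra against normal 1 rose and 1 fell, where 1.33% of all probe sets were higher and 0.541% lower, and the median was 0.28. At an unadjusted p under 0.05, limma had 18 higher and 3 lower there, and the methods' t-test 30 higher and 2 lower. Without 4NQO array 2 the counts of calls in the 3 comparisons were 18 lower and 6 higher, 22 higher and 0 lower, and 9 higher and 1 lower. The counts of calls also rested on other arrays. In 4NQO against normal 5 fell and 0 rose without normal array 3, and in IL-1Ra against 4NQO 7 rose without IL-1Ra array 1 or 2 and 42 without 4NQO array 3. In IL-1Ra against normal 0 were called without any 1 of the normal or IL-1Ra arrays. The lists were drawn up by function, but with earlier results of these arrays known.

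Of 12 other envelope proteins measured, 6 fell in 4NQO and 5 were higher in IL-1Ra than in 4NQO. Kplce is in both counts and was already counted among the genes between Loricrin and Lce3b. Scel, encoding sciellin, was at 10.88 ± 0.10 in normal, 9.46 ± 0.52 in 4NQO and 11.08 ± 0.08 in IL-1Ra, a change of -1.42 and then 1.62 log2 (SE 0.21; limma adjusted p = 0.00646 and 0.00602). Ppl, encoding the plakin periplakin, on which the envelope is started, fell 3.13-fold (limma adjusted p = 0.0140) and was 3.82-fold higher in IL-1Ra than in 4NQO (limma adjusted p = 0.0182). Dmkn, a secreted protein of the upper layers, fell by 1.09 log2 (limma adjusted p = 0.0432), and Cst6, a cysteine protease inhibitor of the horny layer, was 1.76 log2 higher in IL-1Ra than in 4NQO (limma adjusted p = 0.0473). Against normal, limma called 0 of the 12 in IL-1Ra, with 1 at an unadjusted p under 0.05 and 6 by the methods' t-test.

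Among the other transglutaminases 0 of 5 were called by limma in any comparison. At an unadjusted p under 0.05 limma had 1 lower in 4NQO and 2 higher in IL-1Ra than in 4NQO, and the methods' t-test 0 in each comparison. For comparison with Tgm1, 2 were named after their values were seen. Tgm3, the soluble enzyme of the hair follicle and tongue, was at 11.58 ± 0.33 in normal, 10.78 ± 0.76 in 4NQO and 11.77 ± 0.13 in IL-1Ra. Its means stood in the same order as those of Tgm1, lowest in 4NQO and highest in IL-1Ra, and the differences of -0.79 and 0.99 log2 did not pass (limma adjusted p = 0.118 and 0.135). Tgm2, the widely expressed tissue enzyme, differed by 0.37 and -0.10 log2.

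Shedding proteases cut the bonds between horny cells, and their inhibitors hold the cutting back. Of 13 genes measured for this list, 6 fell in 4NQO and 6 were higher in IL-1Ra than in 4NQO. The 13 include Klk1 and Klk1c9, which were not listed and came in through synonyms. Both were dim, with group means of 2.77 to 3.63 where the lower quartile of an array was 3.6 to 3.78, and neither was called. Serpinb7, a protease inhibitor of the upper layers, fell 6.18-fold to 4.70 ± 0.29 (limma adjusted p = 0.00367) and was at 6.92 ± 0.62 in IL-1Ra, and its second probe set agreed in direction with -2.73 and 2.71 log2. Asprv1, a protease that processes filaggrin, was at 12.48 ± 0.04 in IL-1Ra, 8.57-fold above 4NQO (limma adjusted p = 0.0144). Prss8, encoding the membrane protease prostasin, fell by 0.98 log2 (limma adjusted p = 0.0244) and Klk10, a kallikrein, by 1.87 (limma adjusted p = 0.0236). Klk6, another kallikrein, was at 5.0 ± 0.64 in normal, 4.04 ± 0.25 in 4NQO and 7.25 ± 0.62 in IL-1Ra. It was 9.22-fold above 4NQO (limma adjusted p = 0.00295) and 4.75-fold above normal (limma adjusted p = 0.0344). Of the 5 lists it was the one gene that limma called higher in IL-1Ra than in normal. At an unadjusted p under 0.05, limma had 3 of the 13 higher there, and the methods' t-test 5.

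Barrier lipid genes supply the lipids between the horny cells. Of 13 measured, 5 fell and 1 rose in 4NQO, and 6 were higher in IL-1Ra than in 4NQO. Aloxe3, an epidermal lipoxygenase, fell by 1.29 log2 (limma adjusted p = 0.0218) and was 1.83 higher in IL-1Ra than in 4NQO (limma adjusted p = 0.0155). Elovl1, which elongates very long fatty acids, was 1.70-fold lower (limma adjusted p = 0.0441) and then 2.61-fold higher (limma adjusted p = 0.0142). Sts, steroid sulfatase, fell by 0.81 log2 (limma adjusted p = 0.0268), and Abhd5, an activator of lipid hydrolysis, was 1.73-fold higher in IL-1Ra than in 4NQO (limma adjusted p = 0.0154). The second probe set of Abhd5 gave 1.66 log2 there (limma adjusted p = 0.00869), against 0.79 by the first, and was also lower in 4NQO than in normal, by -0.93 (limma adjusted p = 0.0309). The gene that rose in 4NQO was Smpd1, a lysosomal sphingomyelinase, by 0.54 log2 (limma adjusted p = 0.0371), a call lost in 8 of 16 other settings, quantile normalization and cyclic loess among them. Limma called 0 of the 13 in IL-1Ra against normal, with 5 higher and 1 lower at an unadjusted p under 0.05 and 6 higher by the methods' t-test.

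The last list held regulators of differentiation. Of 35 measured, 4 fell and 5 rose in 4NQO, where 5.44% of all probe sets were lower and 9.41% higher, so that nothing is read from the number that rose. In IL-1Ra 6 were higher than in 4NQO, where 1.59% of all probe sets were. Hopx, a homeodomain cofactor, fell from 12.08 ± 0.03 to 10.16 ± 0.65 (limma adjusted p = 0.00470), and Prdm1, encoding the repressor Blimp1 of late keratinocyte differentiation, from 8.84 ± 0.36 to 6.86 ± 0.61 (limma adjusted p = 0.00522). In IL-1Ra they were at 11.99 ± 0.07 and 9.13 ± 0.16, higher than in 4NQO (limma adjusted p = 0.00769 and 0.00396). Ehf, an epithelial ETS factor, fell by 0.93 log2 and was 1.32 higher in IL-1Ra (limma adjusted p = 0.0116 and 0.00608). Fosl2, a subunit of AP-1, was 0.85 higher in IL-1Ra than in 4NQO (limma adjusted p = 0.0169), with 0.80 by a second probe set that did not pass. The other Fos and Jun genes of the list, named after their values were seen, were not called there. They were Fos, Fosl1, Jun, Junb and Jund, with -0.64, 0.80, 0.18, 0.54 and -0.02 log2. The 5 that rose in 4NQO were Tp63, Notch1, Jag2, Nfe2l2 and Tfap2a, by 1.40, 0.74, 0.72, 0.62 and 0.97 log2 (limma adjusted p = 0.0226, 0.0208, 0.0106, 0.0156 and 0.0212). All but Jag2 were named after their values were seen. Over the 5 lists, the 6 genes called higher in 4NQO than in normal became 4 after quantile normalization and 1 after cyclic loess. The call of Jag2 held after both scalings. Tp63 keeps basal keratinocytes proliferating, and Notch1 and Jag2 are a receptor and a ligand that signal between keratinocytes. Ahr, a receptor for aromatic compounds, was the one gene that limma called lower in IL-1Ra than in normal, by 0.61 log2 (limma adjusted p = 0.0462), with -0.08 by its second probe set. The first probe set was dim, at 3.82 ± 0.17 in normal and 3.21 ± 0.06 in IL-1Ra, where the lower quartile of an array was 3.6 to 3.78. The call was absent when dim probe sets were left out. At an unadjusted p under 0.05, limma had 9 of the 35 higher and 2 lower in IL-1Ra than in normal, and the methods' t-test 13 and 2.

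**Figure D5:**
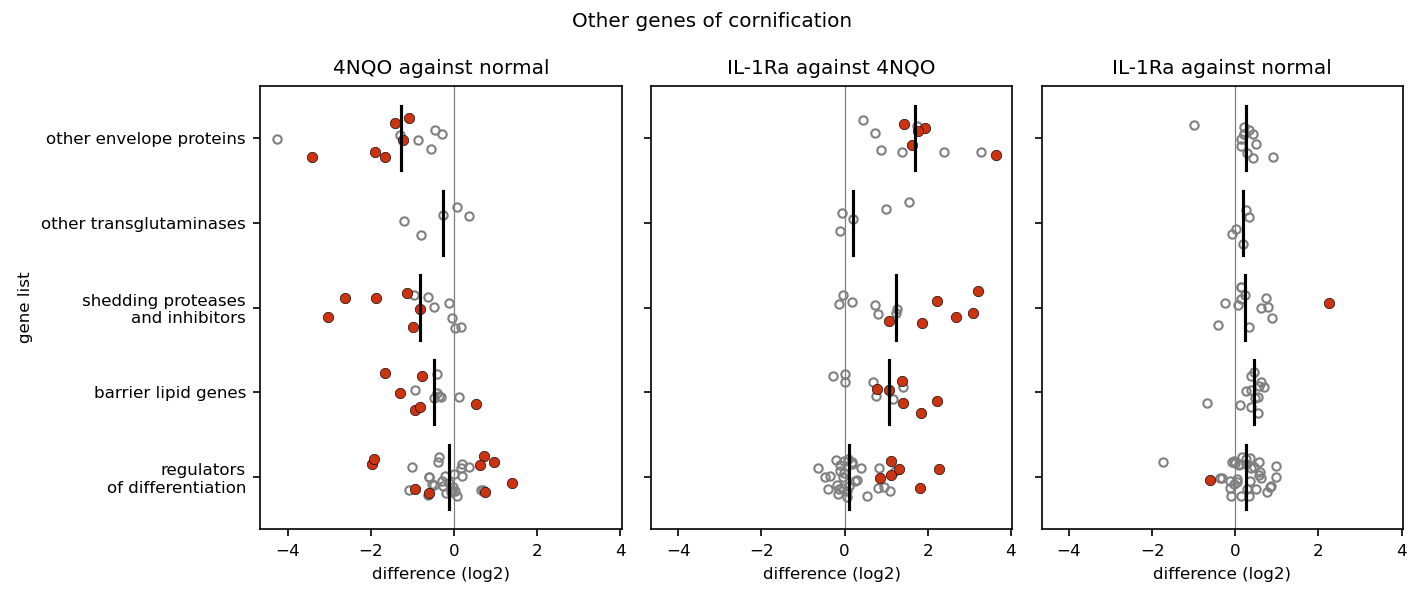
Difference between group means (log2) for 78 other genes measured for the cornification lists, by list, in 3 comparisons. Genes called by limma are filled red points, the others are open points and the list median is a black line. In the middle panel all 23 called genes lie to the right of 0, and in the left panel 21 of 27 lie to the left.

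By the Pearson correlation of their log2 values over the 9 arrays with the mean standardised profile of the 10 genes, the genes most like them were Degs2, Calml3, Dmkn, Ly6g6c, Cdsn, Cysrt1, Metrnl, Pdzk1ip1, Serpinb12 and Gjb6, with r from 0.998 to 0.987. Of these, Dmkn, Cdsn and Serpinb12 were on the lists of envelope proteins or inhibitors, and Degs2, a desaturase that makes phytoceramide, was on the lipid list. Degs2 was at 8.47 ± 0.40 in normal, 6.82 ± 1.22 in 4NQO and 9.04 ± 0.11 in IL-1Ra. Cdsn, encoding corneodesmosin, which joins horny cells, was at 10.93 ± 0.60, 9.04 ± 1.31 and 11.44 ± 0.32, and Ly6g6c at 11.19 ± 0.23, 8.79 ± 1.34 and 11.59 ± 0.07. The least like were Mtdh, Lrpprc, Tspyl1, Nudt2 and Eif4g3, with r from -0.979 to -0.976, and they spanned less, Mtdh being at 9.87 ± 0.04 in normal, 10.21 ± 0.26 in 4NQO and 9.74 ± 0.09 in IL-1Ra. The values are a description over 9 arrays in 3 groups, and any gene that followed 4NQO array 2 would score high.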

How the data were processed

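Biotin-labelled RNA of 1 tongue was hybridised to each Affymetrix rat array. The submitters' processing notes name Expression Console and RMA, without versions, and the values the authors deposited are linear intensity per probe set, of which log2 was taken here. RMA makes array distributions alike and can hide a shift shared by most genes. Of 31099 probe sets, 57 controls were left out. Of the 31042 tested, 20826 had a single symbol, 436 several and 9780 none, and only the first kind was named. Where a gene had several probe sets, the brightest on average stood for it. Array medians were 37.5 to 38.6 intensity units, and the number of arrays limits the precision.

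A linear model of 3 group means was fitted with limma 3.58.1 (R 4.3.3) to all 9 arrays and all probe sets, with eBayes (6 residual and 4.01 prior degrees of freedom), two-sided tests and Benjamini-Hochberg adjustment at 0.05 within each comparison. The procedure was run on simulated data with independent noise of equal spread in all groups, unlike these arrays. Nothing about the calls is read from it. The chosen genes got no test. The 5 cornification lists and 9 marker lists, like the chosen genes, were set up with earlier results of these data known. Named genes were, per list and comparison, up to 4 called genes with the lowest adjusted p, and the 10 most and 5 least like the chosen genes in profile, with the exceptions the text gives. Other settings were quantile, cyclic loess and median scaling, leaving out the 40% dimmest probe sets, eBayes with trend and robust, array weights, the 6 compared arrays alone, the methods' t-test at an unadjusted p of 0.05 with a fold of 2 or after Benjamini-Hochberg, other probe sets, and leaving out each array. The genes between Loricrin and Lce3b, and their settings, were added after the data were seen. Promoters came from a RefSeq table with the build GRCr8, and the gene table gave chromosomes, gene order and gene spans. Figures were drawn with matplotlib 3.10.9.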

Additional observations from a re-analysis of the deposited data

How the results depend on the processing

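For the 10 chosen genes, 91 of 93 differences recomputed with another scaling or another probe set moved by less than the pooled SD. The others were 0.25 log2 for Sprr1a in IL-1Ra against normal after cyclic loess, and 0.37 for Lce3b by its other probe set. Leaving out 1 of 3 arrays cannot move a difference by the pooled SD, so the report gives the values without 4NQO array 2 gene by gene, and Sprr2d changed sign there, from -0.79 to 0.14 in 4NQO against normal. With 1 array left out, the median over the genes ran from -2.40 to -1.07 for 4NQO against normal, the latter without 4NQO array 2.

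Counts of calls moved more, and the cause was not tested. In 4NQO against normal, 4610 probe sets were called, 63.4% of them higher. There were 2821 (51.9% higher) after quantile normalization, 2480 (47.7%) after cyclic loess, 851 (without normal array 3) to 4417 with 1 array left out, 452 by the methods' t-test with a fold of 2 and 1 after adjusting it. The number of other cornification genes called was 27, and became 13 with the 6 compared arrays alone, 5 to 37 with 1 array left out, 9 by the methods' t-test with a fold of 2 and 0 after adjusting it. In IL-1Ra against 4NQO, 722 probe sets (68.6% higher, against 79.9% after cyclic loess) became 195 with the 6 arrays, 184 (without IL-1Ra array 2) to 2353 (without 4NQO array 3) with 1 left out, 357 by the methods' t-test with a fold of 2 and 0 after adjusting it. The number of cornification genes, 23, became 10 with the 6 arrays, 7 to 42 with 1 left out and 0 by the adjusted methods' t-test. In IL-1Ra against normal, 581 probe sets (71.1% higher) became 203 (46.3%) after quantile normalization, 97 (35.1%) after cyclic loess, 3556 with array weights, 2714 with the 6 arrays, 0 (without any 1 normal array) to 2084 (without 4NQO array 3) with 1 left out, and 195 and 109 by the methods' t-test in its 2 forms. The number of cornification genes, 2, became 1 after either scaling, 12 with array weights (11 of them higher) and 20 with the 6 arrays (19 higher). It was 0 to 11 with 1 left out, and 1 and 0 by the methods' t-test in the same 2 forms.

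Of the named calls, those of Scel, Serpinb7, Hopx and Prdm1 in both comparisons with 4NQO held in 16 of 16 settings other than the methods' t-test and other probe sets. Those of Dmkn (4NQO against normal), Cst6, Kplce (IL-1Ra against 4NQO), Elovl1 (4NQO against normal), Ahr and Smpd1 were lost in 11, 10, 9, 9, 10 and 8 of them. The call of Klk6 in IL-1Ra against normal was lost in 6, each leaving out an array of the 2 groups. No scaling moved the median of all probe sets by 0.1 log2, but the array medians were already alike before it, so nothing is read from that. No paired analysis was made, because by the methods rats were allotted at random to 4NQO or 4NQO+IL-1Ra, with other rats as normal controls. The labels give no pairing either.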
